A study of Mus musculus with 7 samples.

Results

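Other CAC sites are places in the genome where CTCF and cohesin bind together but which the study did not class as an anchor of a topologically associating domain (TAD) or of a loop inside a TAD. The sites described here are the other CAC sites on chromosomes 1 to 19 that hold a CTCF motif and whose CTCF summit lies within 1000 bp of a protein-coding transcription start. They number 5056, out of 20064 other CAC sites with a motif on these chromosomes, 26970 other CAC sites in all and 52436 CTCF sites in the class list. The data are chromatin immunoprecipitation sequencing (ChIP-seq) of livers of male CD-1 mice (Crl:CD1(ICR)) of 8 weeks of age, with 4 libraries for CTCF and 3 for Rad21. No mouse carried a labelled mutation, and there is no control group. Peaks were called on the merged libraries of each factor, so that no value has a spread between mice. All coordinates are those of mouse genome build mm9.

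CTCF is a zinc finger protein that binds a long, directional DNA motif, and its binding is blocked where certain CpG dinucleotides of the motif are methylated. Cohesin is a ring-shaped complex that includes Rad21 and either Stag1 or Stag2. It extrudes chromatin loops and halts at CTCF, preferentially where the motif points into the loop. Top2b is a topoisomerase that relieves torsion in DNA and is found with CTCF and cohesin and at active promoters. Many promoters lie in CpG islands, which are rich in G and C, largely unmethylated, and open, and CTCF bound near a start has been linked to contacts between promoters and distant enhancers.

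The sequences of strongly bound sites give examples of the motif at a promoter. Each is given from 5′ to 3′ along the motif strand, with the 19 bases of the best motif in capitals and 5 flanking bases on both sides in lower case. The first 9 are the members with the most CTCF fragments among those of the 10 strongest for which a sequence is shown, and the last 2 are the site with the highest motif score and the promoter of a liver transcription factor gene.

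Acbd4: gtgggTTTCCACCAGGGGGCGCGAggact
Bptf: cgcggCGGCCGCTAGGGGGAGCGCgggag
Trrap: cctccGGGCCGCCAGGGGGCGCCGtagcc
2310035K24Rik: gagggCGACCGCCAGGGGGCGCTGaggac
Sh3bp5: ccgccTGCCCGGGAGGTGGAGGAGaaaga
Hnrpdl: agcgcCTCCCGCCAGGGGGCGCGCcggag
B3galtl: gggtgGCGCCACTAGAGGGCGCTGcggcc
Smap2: cccgaAGCCCGCCAGGGGGCGCCGcgctg
Sertad1: ttggaGTACCGCTAGGGGGCGCCGggact
Homer3: gtagcTGGCCAGCAGGGGGCGCTGggcag
Cebpa: ccgttTGGACACCAGGGGGCGATGcccga

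The motif at Acbd4 lies at chr11:102964126-102964144 and that at Bptf at chr11:106993549-106993567, both on the plus strand. The motif at Homer3, at chr8:72806859-72806877, had the highest score of all members, 26.6. Every one of these 11 motifs holds at least 1 CpG, as do 78.8% of all members. Apart from that at Sh3bp5, they score from 16.3 at Hnrpdl to 26.6 at Homer3. The median member scores 11.04, so these examples are not typical of members.

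A longer stretch shows the setting of such a motif. Bptf encodes a subunit of a nucleosome remodelling complex, and the 300 bases around its CTCF summit, at chr11:106993446-106993745, lie before the start and outside any annotated untranslated region. They are printed on the plus strand, while the gene runs on the minus strand, and the motif is in capitals. G and C make up 75.7% of these bases and CpG occurs 38 times.

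Bptf: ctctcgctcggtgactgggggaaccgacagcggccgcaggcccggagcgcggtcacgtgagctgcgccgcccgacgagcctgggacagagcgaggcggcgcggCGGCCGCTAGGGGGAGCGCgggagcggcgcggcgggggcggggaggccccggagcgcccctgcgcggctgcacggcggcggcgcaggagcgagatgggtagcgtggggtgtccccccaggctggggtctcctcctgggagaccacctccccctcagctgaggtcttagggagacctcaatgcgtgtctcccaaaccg

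The second such stretch belongs to 2310035K24Rik, at chr2:131035789-131036088 and in an intron by annotation. It is printed on the plus strand, where the capitals give the motif as it reads opposite to its own strand. It holds 68.7% G and C and 30 CpG.

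2310035K24Rik: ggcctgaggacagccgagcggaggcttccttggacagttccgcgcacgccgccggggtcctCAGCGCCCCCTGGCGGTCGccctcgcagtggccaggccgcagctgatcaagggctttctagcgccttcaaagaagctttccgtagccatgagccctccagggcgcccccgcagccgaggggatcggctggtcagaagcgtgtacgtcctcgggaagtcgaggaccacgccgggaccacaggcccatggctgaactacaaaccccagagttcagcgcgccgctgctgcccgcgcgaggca

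Strength is given as summit fragments, the number of sequenced fragments stacked at the highest point of a peak, recovered from the deposited fold and p-value of that peak. The depth of the pool of each factor is unknown, so Rad21 counts and Rad21-to-CTCF ratios are compared between sites, and a ratio above 1 does not mean more Rad21 than CTCF. At the members it ranged from 34 to 3516 for CTCF, with a median of 113 and quartiles of 76 and 203. For Rad21 it ranged from 16 to 993, with a median of 64 and quartiles of 45 and 95. The members were wide peaks, with a median of 709 bp. Sites are not replicates, and with lists this long small differences give small p-values, so each p below compares lists and is set beside the size of the difference. Sizes are given as AUC, the probability that a member exceeds a site of the other set, where 0.5 means no difference. All p-values are adjusted over 17 tests.

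Within the 1000 bp that the choice of members allows, more of them lay after the start than before it. Of the 5056 sites, 3226 had their summit downstream of the nearest start, a share of 63.8% (95% confidence interval 62.5 to 65.1), 1827 lay upstream and 3 at the start itself. The median position was 80 bp downstream, and 3405 sites, or 67.3%, lay within 250 bp of the start. The zone from over 100 to 250 bp downstream held 1283 sites, and the narrower zone from 0 to 100 bp held 954. Summits fell in an intron at 1474 sites, in an untranslated exon at 1405, in a coding exon at 925 and outside protein-coding transcripts at 1252. The limit of 1000 bp did not mark a step in strength: the 106 sites from over 900 to 1000 bp had a median of 149.5 CTCF fragments and the 98 motif sites from over 1000 to 1100 bp had 144. The share with a Top2b peak was 66.0% inside the limit and 48.0% outside it.

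**Figure D1:**
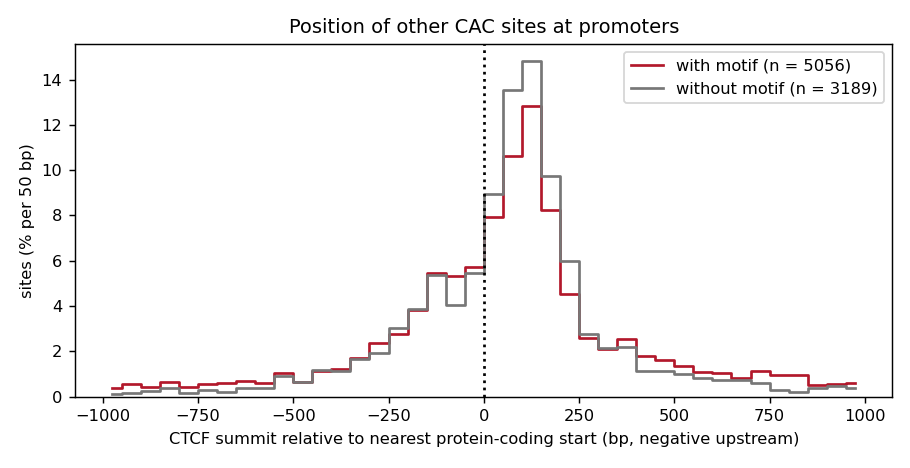
The plot of positions gives the share of sites per 50 bp against the distance of the CTCF summit from the nearest protein-coding start, for the 5056 members and the 3189 other CAC sites at promoters without a motif. Both lists crowd around the start and lean downstream, with 63.8% and 68.1% of sites after the start.

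The 10 members with the most CTCF fragments stood far above the median of 113. The strongest was at Acbd4, which encodes an acyl-CoA binding protein, with 3516 CTCF and 993 Rad21 fragments, the highest value of both factors. Its peak, chr11:102963923-102964388, has its summit 229 bp upstream of the nearest start. Bptf followed, with 3033 CTCF but 214 Rad21 fragments and a summit 155 bp upstream. At Trrap, a scaffold protein of histone acetyltransferase complexes, 2661 CTCF fragments stood beside only 52 Rad21 fragments. Kdm3b, a histone demethylase, was alike, with 2386 CTCF and 53 Rad21 fragments. Both had less Rad21 than the median member although their CTCF peaks were over 20 times the median count. At 2310035K24Rik the counts were 2536 for CTCF and 410 for Rad21. Sh3bp5, which encodes a regulator of JNK signalling, had 2174 and 643 fragments. Its best motif scored only 10.6 and lay 261 bp from the CTCF summit. Hnrpdl, an RNA-binding protein gene that faces Enoph1 across the same promoter, had 2024 CTCF and 57 Rad21 fragments, and there the overlapping Rad21 summit lay 651 bp from the CTCF summit. The other three were B3galtl with 2022, Smap2 with 2005 and Sertad1 with 1986 CTCF fragments, and their Rad21 counts of 101, 163 and 100 were also modest.

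The 10 members with the most Rad21 shared only Acbd4 and Sh3bp5 with that list. Prss36, a serine protease gene, had 700 Rad21 and 1703 CTCF fragments. Rhof, a small GTPase gene, had 676 and 753, with a summit 872 bp upstream. Ddah2, whose protein degrades methylated arginines, had 671 and 613. Ppdpf had 655, Nedd4l, a ubiquitin ligase gene, 621, B9d1, a gene of the ciliary transition zone, 607, and Wdr38 588. At Nedd4l the best motif lay 983 bp from the CTCF summit, near the other end of a wide peak, and at Ppdpf 565 bp from it. All 10 sites with the most Rad21 overlapped peaks of Stag1, Stag2 and Top2b, as did 52.4% of all members. Such overlap was also common at strong CTCF sites. Of the 553 members with at least 396 CTCF fragments, 88.1% overlapped Stag1, 99.8% Stag2 and 82.3% Top2b.

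The 5 highest motif scores belonged to Homer3 (26.6), Hsd3b7 (25.9), Aipl1 (24.3), Hipk4 (24.3) and Pdzd7 (24.2). Hsd3b7 encodes an enzyme of bile acid synthesis, and its site 71 bp upstream of the start had 941 CTCF and 346 Rad21 fragments. Homer3, a postsynaptic scaffold gene, had 1182 CTCF and 84 Rad21 fragments. Aipl1, a photoreceptor chaperone gene, had 346 and 40. These high-scoring motifs came with CTCF counts from 309 at Pdzd7 to 1182 at Homer3, all above the median member.

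Among members with at least the median CTCF count, the Rad21-to-CTCF ratio spread widely. It was highest at Dock5, with 358 Rad21 and 144 CTCF fragments, a ratio of 2.49. Map3k5, a stress-activated kinase gene, followed with 577 and 286, and it overlapped neither a Stag nor a Top2b peak. Ssbp3 had a ratio of 1.88, Rassf5 also 1.88 and Myo6, a myosin gene, 1.69. At Dock5, Map3k5 and Rassf5 the Rad21 summit lay 787, 618 and 1040 bp from the CTCF summit, so that these ratios set counts of different positions side by side. The lowest ratios were at Trrap (0.0195), Kdm3b (0.0222), Hnrpdl (0.0282), Ndufaf4 (0.0283) and Celf5 (0.0316). Ndufaf4, an assembly factor of respiratory complex I, combined a motif of 24.0 located 5 bp from the summit with 1201 CTCF and only 34 Rad21 fragments. The 5 high-ratio sites had 113 to 286 CTCF fragments, and the 5 low-ratio sites had 1201 to 2661. This contrast is built into the ratio and shows nothing further. CTCF is its denominator, and no member had fewer than 16 Rad21 fragments, so the lowest ratios can only come from strong CTCF sites.

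The first comparison asks how a CTCF and cohesin site at a promoter differs from one elsewhere. The 15008 other CAC sites with a motif more than 1000 bp from a start served as the distal set. Peaks were wider at members, with medians of 709 and 441 bp. The motif was sought within the peak, and Rad21 and the flags for other proteins were taken by overlap. The part of width in the differences from distal sites, here and below, was not tested. Members had fewer CTCF fragments, with a median of 113 against 135 (n = 5056 and 15008, D = 0.102, AUC = 0.470, adjusted p = 3.3e-34, two-sided Kolmogorov-Smirnov test), and their median was lower on all 19 chromosomes. They had more Rad21 fragments, with 64 against 53 (n = 5056 and 15008, D = 0.160, AUC = 0.574, adjusted p = 2.3e-84), higher on all 19 chromosomes. The median log2 Rad21-to-CTCF ratio was −0.89 at members and −1.17 at distal sites (n = 5056 and 15008, D = 0.143, AUC = 0.588, adjusted p = 9.0e-68). Each of these 3 differences is small beside the spread of either list, and each turned with a setting. With motif scores of at least 14, or with the motif within 50 bp of the summit, CTCF was higher at promoters, with AUCs of 0.584 and 0.534. In the second of these settings both medians were 145, and members were higher on 12 of 19 chromosomes. With scores of at least 14 the ratio was lower at promoters (AUC = 0.479). With the TAD and intra-TAD anchors added to both sets, Rad21 was lower at promoters, with medians of 72 and 78 (n = 6610 and 27427, AUC = 0.482). By the deposited fold, which divides by the local background, Rad21 was lower at promoters (AUC = 0.437), and the difference in CTCF was larger than by fragments, with medians of 8.34 and 12.3 (D = 0.262, AUC = 0.338). The background itself differed, with a median of 10.2 fragments at members and 6.85 at distal sites for Rad21, and 13.5 and 9.57 for CTCF. Its part in the difference was not tested.

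The order of the lists in Rad21 changed with CTCF strength. Members and distal sites were put together into 10 bins by CTCF fragments. In the 8 weaker bins the median Rad21 count was higher at promoters, for instance 67 against 48 in the fifth bin. In the ninth bin, whose CTCF medians were 321 and 326, it was 92 at the 317 members and 101 at the 1684 distal sites. In the strongest bin, with at least 396 CTCF fragments and no upper limit, it was 119 at the 553 members and 162 at the 1460 distal sites, but there CTCF was not matched, with medians of 633 and 491. These bins are a description, since Rad21 and CTCF were measured on the same sites.

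**Figure D2:**
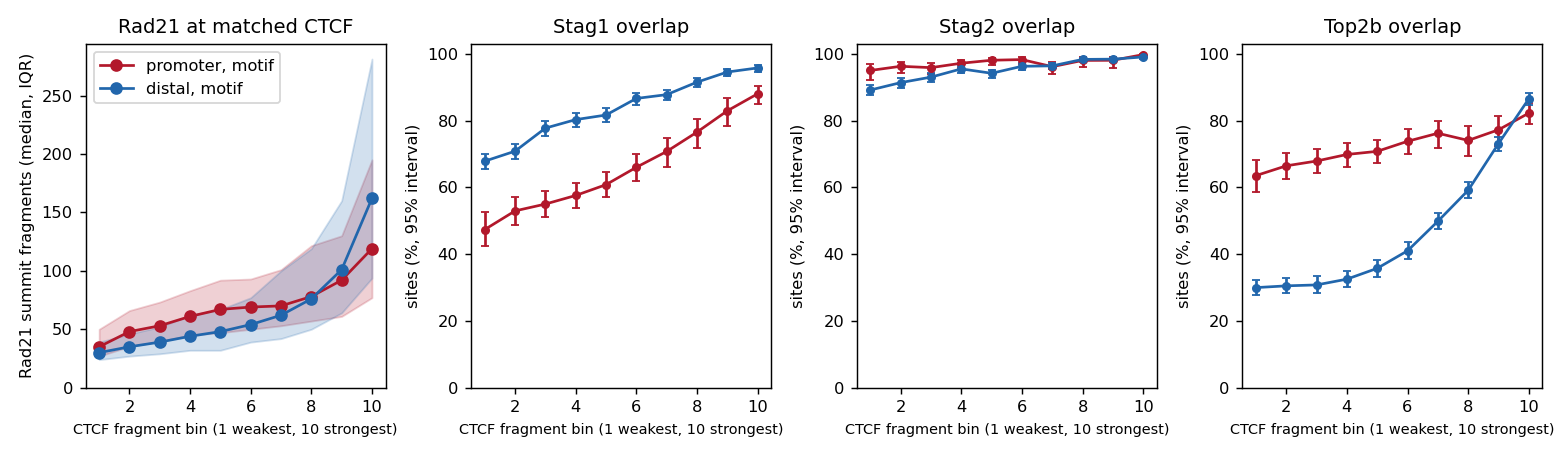
The plots show, for members and distal motif sites in 10 bins of rising CTCF fragment count, the median Rad21 summit fragments with quartiles and the percent of sites that overlap a Stag1, Stag2 or Top2b peak with 95% intervals. Rad21 is higher at promoters in the 8 weaker bins and lower in the 2 strongest, Stag1 is lower in all 10, and Top2b is higher in 9 of 10.

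The strongest members differed from the other members in where they sat. Of the 553 in the strongest bin, 346 (62.6%) lay upstream of the start, against 1481 of 4503 (32.9%) in the other bins. The zone from 100 to 1 bp upstream held 142 of them, with a median of 748 CTCF and 96 Rad21 fragments and a median log2 ratio of −2.95. Those from over 500 to 1000 bp upstream had a median of 581 CTCF and 137 Rad21 fragments and a log2 ratio of −1.93. The strong CTCF sites just before a start had the lowest median ratio of the 8 zones, but also the highest median CTCF count, which is the denominator of that ratio. Their Rad21 median was not the lowest, since the zone from 0 to 100 bp downstream had 90. The median ratio was −1.69 at distal sites of the same bin, whose CTCF median was lower, at 491. Named examples near the start were Mrps16, 2 bp upstream, with 1680 CTCF and 61 Rad21 fragments, and Rps3a, 51 bp upstream, with 1740 and 63.

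Members had lower motif scores than distal sites. The median motif score was 11.04 at members and 15.9 at distal sites (D = 0.454, AUC = 0.222, with p at the floor of 1e-300 used here), and lower on all 19 chromosomes. A score of at least 14 was held by 1106 members (21.9%, interval 20.8 to 23.0) and by 9947 distal sites (66.3%). A score under 10 was held by 36.5% of members and 9.79% of distal sites. The direction held in all 9 alternatives tried. Base composition differed too, with a median of 66.1% G and C within 250 bp of the summit at members and 46.3% at distal sites, and its part in the motif scores was not tested.

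In the wider peaks of promoters the best motif also lay farther from the CTCF summit. Its centre was within 50 bp of the summit at 1874 members, or 37.1% (35.7 to 38.4), and at 86.9% of distal sites, with median distances of 92 and 18 bp. Among members this rose with the score, from 27.0% for scores under 10 to 78.4% for scores of at least 17. The 422 members with such high scores had a median of 311 CTCF fragments, against 93 at the 1843 members with scores under 10. Rad21 moved far less over the same groups, from 62 to 79 fragments, and the log2 ratio fell from −0.69 to −1.73. Members with scores of at least 17 exceeded distal sites of that score in CTCF, with 311 against 192.

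A match of this matrix is common in promoter sequence. In windows of 708 bp, the even length nearest below the members' median width, a match of at least the lowest listed score was found at 32.4% (31.7 to 33.0) of 20045 starts with no CTCF peak within 1000 bp. It was found in 31.2% of 10112 windows centred 1000 bp from the member summits. These windows were kept whether or not they held a CTCF peak, and another CTCF peak lay within 2000 bp of 36.2% of members. The share was 61.3% among all 8245 other CAC sites within 1000 bp of a start, whose own widths vary. For scores of at least 14 the shares were 3.30% at starts without CTCF, 3.76% in the flanking windows and 13.4% at the CAC sites of promoters. How many members are bound through the listed motif was not tested.

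**Figure D3:**
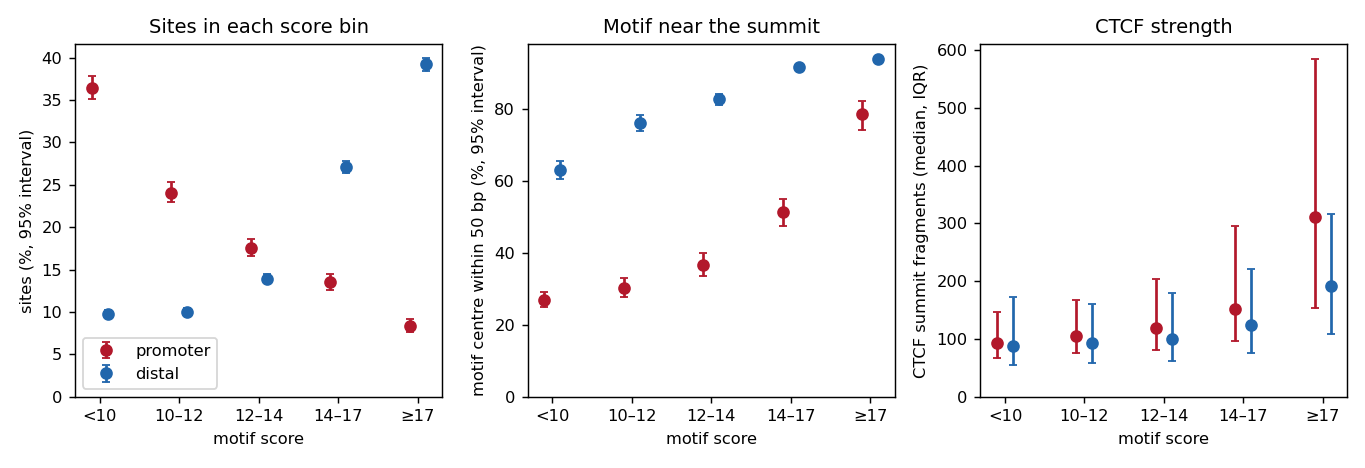
The plots give, in 5 bins of motif score for members and distal motif sites, the percent of sites in the bin, the percent whose motif centre lies within 50 bp of the CTCF summit (both with 95% intervals), and the median CTCF summit fragments with quartiles. Members crowd in the low scores, and only 27.0% of those under 10 have the motif near the summit, against 78.4% of those at 17 or more.

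The motifs of promoters held far more CpG. At least 1 CpG lay within the 19 bases at 3986 members (78.8%, 77.7 to 79.9) and at 35.8% (35.0 to 36.5) of distal sites. Counted from 1 at the 5′ end of the motif, a CpG began at base 5 in 25.5% of members and 4.62% of distal sites, and at base 15 in 47.4% and 25.6%. Base 6 was A in 47.0% of members and 80.5% of distal sites. The sequences of Bptf, Trrap and Smap2 above show such CpG-rich versions, while Acbd4, Homer3 and Cebpa keep the A. Within 250 bp of the summit the observed-to-expected CpG ratio had a median of 0.805 at members and 0.209 at distal sites. The 1045 members with a ratio under 0.6 had a higher median motif score, 12.7 against 10.8, and a higher Stag1 share, 76.5% against 61.7%, than the 4011 others. The Top2b share of these members differed little, with 70.4% against 72.4%. Distal sites split likewise in motif score and Stag1, but more widely in Top2b. The 698 distal sites with a ratio of 0.6 or more had a median motif score of 12.2, a Stag1 share of 68.9% and a Top2b share of 61.6%, against 16.05, 84.5% and 47.0% at the 14310 others.

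Flags in the class list mark overlap with peaks of Stag1, Stag2 and Top2b, which the study took from public liver data. The names of the flags rest on the order of columns in the study's own listing. Stag1 was found at 3272 members, a share of 64.7% (63.4 to 66.0), against 83.8% of distal sites and 70.6% of the whole class list. It was lower still at promoter sites without a motif, at 56.7% (54.97 to 58.4). At equal CTCF fragments and motif score the odds of a Stag1 peak were 0.340 times those of distal sites (n = 5056 and 15008, 0.312 to 0.370, adjusted p = 2.7e-137, logistic regression clustered by chromosome). Stag2 was found at 4922 members, 97.3% (96.9 to 97.8), against 95.3% of distal sites and 88.1% of the list. The odds ratio for Stag2 was 1.53 (n = 5056 and 15008, 1.23 to 1.90, adjusted p = 0.00016), but 5 of 11 alternatives lost that call. Sites with Stag2 and without Stag1 made up 1657 members, or 32.8% (31.5 to 34.1), 12.5% (11.95 to 13.01) of distal sites and 39.3% (37.6 to 41.03) of promoter sites without a motif.

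Top2b showed the opposite of Stag1. It overlapped 3640 members, 72.0% (70.7 to 73.2), against 47.7% of distal sites and 54.8% of the list, with an odds ratio of 2.203 (n = 5056 and 15008, 2.06 to 2.36, adjusted p = 2.4e-114). In the weakest bin of CTCF the shares were 63.6% and 30.0%, and in the strongest bin 82.3% and 86.6%. The share thus varied less with CTCF strength at members than at distal sites in these bins. Stag1 and Top2b went together, since 81.2% of the members with both Stag proteins had Top2b, against 57.7% of those with Stag2 alone. Members with Stag2 alone were weaker, with medians of 93 CTCF and 50 Rad21 fragments against 132 and 75. Only 7 members had Stag1 without Stag2, and 127 had neither.

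The next comparison asks how promoter sites with and without a listed motif differ. It sets the members beside the 3189 other CAC sites within 1000 bp of a start that have no listed motif. Members had more CTCF, with medians of 113 and 83 fragments (n = 5056 and 3189, D = 0.211, AUC = 0.638, adjusted p = 1.1e-76), on all 19 chromosomes. Their median log2 Rad21-to-CTCF ratio was lower, −0.89 against −0.64 (n = 5056 and 3189, AUC = 0.413, adjusted p = 3.9e-28). Peaks with a motif were also wider, with a median of 709 against 615 bp. The part of width in the presence of a match and in these differences was not tested. At equal CTCF fragments the odds of a Top2b peak were 0.759 times (n = 5056 and 3189, 0.692 to 0.832, adjusted p = 4.9e-09) those of sites without a motif, where the share was 75.4%. All 3 calls held under every alternative tried, but none of these adjusted for peak width, so they do not show what the motif itself adds.

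In their setting at the promoter both kinds of site were close to each other. The median distance from the start, which the choice of sites limits to 1000 bp, was 157 bp at members and 143 bp at sites without a motif. These medians follow the limit, with 135 and 131 bp within 500 bp of a start and 185 and 152 bp within 2000 bp, and are given as a description. The CpG ratio was 0.805 against 0.819 (n = 5056 and 3189, AUC = 0.469, adjusted p = 4.9e-09), lower at members in the pooled list but higher on 8 of 19 chromosomes. Promoters with starts on both strands within 1000 bp made up 476 members, 9.41%, against 11.8% of sites without a motif (n = 5056 and 3189, odds ratio 0.780, 0.705 to 0.863, adjusted p = 1.9e-06). Hnrpdl with Enoph1, Psma7 with Ss18l1 and Mau2 with Sugp1 are members that have starts of 2 genes in reach.

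The direction of the motif relative to the gene was nearly even. Of 4580 members at promoters with starts on 1 strand, the motif lay on the strand of the gene at 2411, or 52.6% (51.2 to 54.1, adjusted p = 0.00039, two-sided exact binomial test). The share downstream of the start, 51.8%, and that upstream, 54.1%, gave an odds ratio of 0.911 (n = 2873 and 1704, 0.804 to 1.03, adjusted p = 0.146), which missed the threshold. It did so in 7 of 9 alternatives too. It passed with motifs within 50 bp of the CTCF summit (odds ratio 0.806) and with anchors added (0.753). The share was highest from 100 to 1 bp upstream, although the zones were not tested against each other. There 305 of 489 motifs, 62.4% (58.0 to 66.6), were on the strand of the gene. From 0 to 100 bp downstream it was 55.2% (51.8 to 58.6). In the strongest bin of CTCF the share from 100 to 1 bp upstream was 98 of 132, or 74.2%. Cebpa, Rpl36, Polr2j and Scap are members of this zone with the motif on the strand of the gene, while Rps3a and Ndufb10 lie on minus-strand genes with a minus-strand motif and so have the same orientation. Promoter anchors of TADs and intra-TAD loops, which were chosen in part by motif strand, had 74.8% of 318 motifs on the gene's strand in the same zone.

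**Figure D4:**
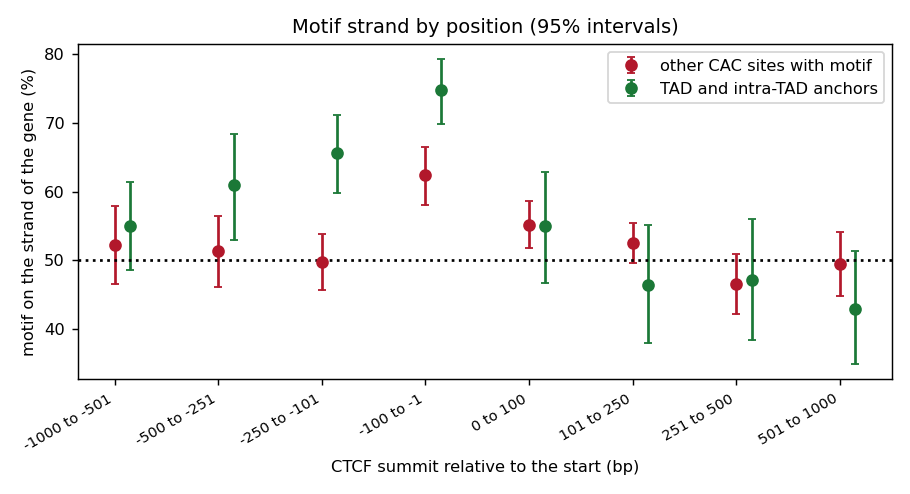
The plot gives the percent of motifs on the strand of the gene, with 95% intervals, in zones of distance from the start, for members and for the 1584 TAD and intra-TAD anchors with a motif at promoters. Members are highest from 100 to 1 bp upstream, where 62.4% are on the strand of the gene and the anchors reach 74.8%, and lie between 46.5% and 55.2% in the other zones.

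Where Rad21 sat relative to CTCF was less fixed in the wider peaks of promoters. The offset of Rad21 from CTCF, summit to summit, was counted as positive in the direction in which the motif, as written above, reads. Its median was 5 bp at members, with quartiles of −51 and 57, and 17 bp at distal sites, with quartiles of −8 and 41 (n = 5056 and 15008, D = 0.187, AUC = 0.450, adjusted p = 5.9e-116). Counted from the motif centre in place of the CTCF summit, the medians were closer, 12 and 16 bp, with an AUC of 0.494 and a higher median at members on 7 of 19 chromosomes. Both summits were within 100 bp of each other at 66.0% of members and 92.3% of distal sites. Members with scores of at least 17 had a median of 11 bp and quartiles of −13 and 39, nearer to the distal values. Motifs that point to the start had a median of 8 bp and motifs that point away 3 bp (n = 2560 and 2493, D = 0.123, AUC = 0.561, adjusted p = 7.4e-17). This call depended on the setting, for reasons that were not tested. With offsets of at most 100 bp it turned, with an AUC of 0.421 (n = 1666 and 1667, adjusted p = 1.1e-11). Counted from the motif centre it was lost on the same sites (AUC = 0.517). Within 500 bp of a start it held (AUC = 0.541), but the medians were 3 and 4 bp, and motifs that point to the start had the higher median on only 6 of 19 chromosomes. Rad21 lay on the side of the start at 51.0% (49.7 to 52.4) of members.

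Members came close to other binding sites. Another CTCF peak of the pooled list lay within 2000 bp of 1829 members, 36.2%, against 17.8% of distal sites and 42.8% of promoter sites without a motif. The median distance to the nearest TAD or intra-TAD anchor was 34570 bp for members, 48740 bp for distal sites and 29710 bp for promoter sites without a motif, so both kinds of promoter site lay closer than distal sites, and those without a motif closest. Members and anchors at promoters differed in strength, with 113 and 452.5 CTCF fragments, but intra-TAD anchors were chosen by peak and motif scores, and TAD anchors among motif peaks found in all 4 CTCF libraries, so this describes the choice.

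The genes next to the members were then counted. A gene was counted where a member summit lay within 1000 bp of any of its starts, which held for 5233 of 21410 autosomal protein-coding genes, or 24.4%. Each share below is read against that background and none was tested. The values in brackets after a share are 95% intervals. The interval holds the background for hepatocyte transcription factors, nuclear receptors, the urea cycle and gluconeogenesis, solute carriers and cytosolic ribosomal proteins. It also does so for NADH dehydrogenase subunits, DNA repair, CTCF and cohesin, clustered protocadherins and imprinted genes. Most genes with a member, 4908, had 1 such site, 313 had 2, and 12 had 3, namely Acvr2b, Atf3, Camta1, Cic, Dab2ip, E2f2, Kdm2b, Mipol1, Mnt, Mtmr4, Ncoa2 and Smad7, named after their values were seen.

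**Figure D5:**
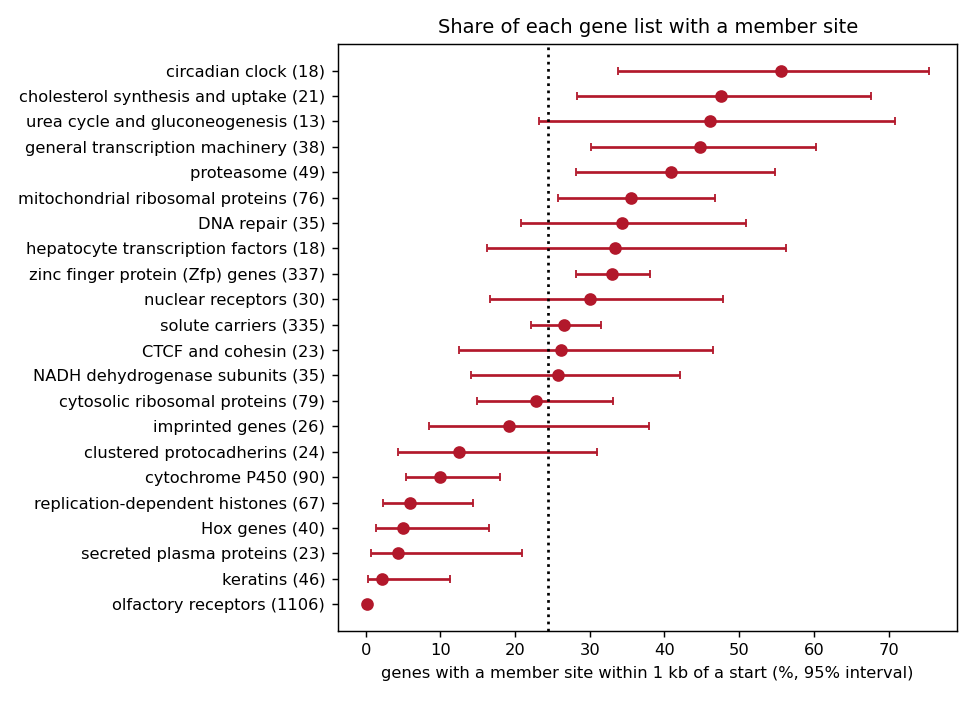
The plot gives the percent of genes of each list that have a member within 1000 bp of a start, with 95% intervals and the number of genes in brackets, and a dotted line at 24.4%, the share over all genes. Circadian clock genes reach 55.6%, while the gene families at the bottom lie under the line.

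Among liver regulators the shares ranged from 30.0% to 55.6%, over the genes of each list found on chromosomes 1 to 19. Of 18 hepatocyte transcription factor genes 6 had one (33.3%, 16.3 to 56.3). At Cux2, a homeobox factor of female-biased expression in liver, there were 1326 CTCF and 233 Rad21 fragments, and at Cebpa, a master regulator of hepatocyte genes, 970 and 127, with the Rad21 summit 1004 bp from that of CTCF. Stat5a, which carries growth hormone signals, had 389 and 141, and Gata4 107 and 117. Of 30 nuclear receptor genes 9 had a member (30.0%, 16.7 to 47.9). Nr2c1 had 938 CTCF fragments, the thyroid hormone receptor gene Thra 453, Pparg 296, and Ppara, the fatty acid sensor of liver, 216, with a motif of 16.6 located 16 bp from its summit. Circadian clock genes had the largest share, 10 of 18 (55.6%, 33.7 to 75.4). The repressor genes Bhlhe40, Nfil3 and Per2 had 747, 450 and 423 CTCF fragments, and Clock, an activator of the clock, had 195.

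Metabolic genes followed. Cholesterol synthesis and uptake had 10 of 21 genes (47.6%, 28.3 to 67.6). Scap, which escorts the sterol-sensing factors SREBP, had 1002 CTCF and 225 Rad21 fragments, 40 bp upstream of its start. Dhcr7, a late enzyme of cholesterol synthesis, had 428 and 258, with a motif of 15.5 located 9 bp from the summit. Lss and Insig2 had 198 and 186 CTCF fragments. The urea cycle and gluconeogenesis had 6 of 13 (46.2%, 23.2 to 70.9), led by Ass1, which makes argininosuccinate, with 388 CTCF and 108 Rad21 fragments. Slc25a15, the mitochondrial ornithine carrier, had 110 and 137. Nags had 107 and 72, and Slc37a4, the carrier of glucose 6-phosphate, 106 and 102. By contrast 1 of 23 genes of secreted plasma proteins had a member (4.35%, 0.772 to 21.0). It was Apoh, whose start is shared with that of Prkca by a site of 86 CTCF fragments. Cytochrome P450 genes had 9 of 90, with an interval of 5.35 to 17.9%. They were led by Cyp24a1 with 317, Cyp27a1 of bile acid synthesis with 190, the vitamin D 25-hydroxylase gene Cyp2r1 with 186 and Cyp20a1 with 179 CTCF fragments. Solute carriers had 89 of 335 (26.6%, 22.1 to 31.5), among them Slc35b2 with 1122, Slc25a37 with 749 and Slc26a6 with 705 CTCF fragments.

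Lists of basic cell functions had shares from 22.8% to 44.7%. General transcription machinery had 17 of 38 (44.7%, 30.1 to 60.3). The RNA polymerase II subunit genes Polr2j and Polr2c had 996 and 877 CTCF fragments beside 71 and 58 Rad21 fragments. Taf10 and Taf11 had 259 and 159 CTCF fragments. The proteasome had 20 of 49 (40.8%, 28.2 to 54.8), with 253 CTCF fragments at Psma7, 195 at Psma1, 194 at Psma3, and 174 at the site that Psme2 shares with Rnf31. Mitochondrial ribosomal proteins had 27 of 76 (35.5%, 25.7 to 46.7), with 1680 at Mrps16, 1348 at Mrpl34, 800 at Mrpl23 and 792 at Mrpl39. Cytosolic ribosomal proteins had 18 of 79 (22.8%, 14.9 to 33.2). Their strongest sites were strong, with 1755 at Rplp0, 1740 at Rps3a, 869 at Rpl36 and 737 at Rpl11. At Rplp0, whose protein is part of the ribosomal stalk, 104 Rad21 fragments stood beside them. NADH dehydrogenase subunits had 9 of 35 (25.7%, 14.2 to 42.1), namely Ndufb10 with 810, Ndufv1 with 455, Ndufa13 beside Tssk6 with 321 and Ndufb3 beside Fam126b with 120 among the strongest. DNA repair had 12 of 35 (34.3%, 20.8 to 50.8), with the end-joining ligase gene Lig4 at 703, Xrcc5 at 223, Parp1 at 139 and Ogg1 at 109. Genes named Zfp, for zinc finger protein, had 111 of 337 (32.9%, 28.1 to 38.1), and Zfp398 had 1507, Zfp41 1439, Zfp746 1385 and Zfp619 1256 fragments.

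The genes of CTCF and cohesin themselves had 6 of 23 (26.1%, 12.5 to 46.5), all of moderate or low strength. Maz, a zinc finger protein found beside CTCF, had 141 CTCF and 164 Rad21 fragments. Zfp143, which also acts at promoters, had 123 and 50. The cohesin release factor gene Wapal had 116 and 101, and the loader subunit gene Mau2 52 and 49. Rad21 itself had 54 and 25, in an intron 444 bp downstream of a start, and Ctcfl, the germ line relative of CTCF, 56 and 49. Rad21 and CTCF summits lay apart by 953 bp at Maz, 466 bp at Wapal, 337 bp at Zfp143 and 275 bp at Rad21.

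Clustered gene families had few members. Of 1106 olfactory receptor genes 2 had a member (0.181%, 0.0496 to 0.657), Olfr718-ps1 with 112 and Olfr15 with 111 fragments. Keratins had 1 of 46 (2.17%, 0.385 to 11.3), Krt78 with 59. Replication-dependent histones had 4 of 67 (5.97%, 2.35 to 14.4), Hist3h2a, Hist1h4f, Hist1h1c and Hist1h1e, with 347, 155, 72 and 50 fragments. Hox genes had 2 of 40 (1.38 to 16.5%), but both were strong, with 823 CTCF and 579 Rad21 fragments at Hoxa7 and 603 and 234 at Hoxa5. Clustered protocadherins had 3 of 24 on chromosome 18 (12.5%, 4.34 to 31.0, an interval that holds the background), Pcdhb17, Pcdhb14 and Pcdhb22, with 95, 51 and 46 fragments, each with the motif on the strand of the gene and 45 to 76 bp upstream of the start. The authors kept only reads with a unique position, and the part of this in the counts at near-identical genes was not tested. Outside these families, imprinted genes had 5 of 26 (19.2%, 8.51 to 37.9, an interval that holds the background), with Ube3a at 325, Mest at 154, Zim1 at 123 and Igf2r at 107.

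Last, the promoters next to members were searched for short words that transcription factors are known to bind, on both strands, from 250 bases before to 50 after the start. A word is a description and not a bound site. The 11 words were GGGGCGGGG for SP and KLF factors, CCGGAAG for ETS factors, GCGCATGCG for NRF1, AAGATGGCG for YY1, TGACGTCA for CREB, CACGTG for E-box factors, CCAATCAG for NFY, ACTACAATT for ZNF143, TATAAAA for the TATA box, and CAAAGTCCA and TGTTTAC for the liver factors HNF4 and FOXA. The SP word was in 25.8% (24.6 to 27.0) of the 4952 promoters nearest to members and in 14.8% (14.5 to 15.1) of all 43969. The ETS word was in 16.7% and 10.965%, the NRF1 word in 3.47% and 2.104%, the YY1 word in 3.49% and 1.93%, the CREB word in 3.37% and 2.14% and the E-box in 9.67% and 7.67%. The TATA word was in 1.92% (1.57 to 2.34) and 4.56% (4.36 to 4.75), and the FOXA word in 97 of the 4952 (1.61 to 2.38%) and 1319 of the 43969 (2.84 to 3.16%). The NFY word was in 4.87% (4.30 to 5.50) and 4.10% (3.92 to 4.29). The intervals overlapped for ZNF143, with 0.565% (0.392 to 0.816) and 0.519% (0.456 to 0.590) and for HNF4, with 0.384% (0.246 to 0.599) and 0.462% (0.403 to 0.530). G and C were also more frequent in the promoters next to members, with a median of 64.7% against 56.3%, and the part of base composition in these shares was not tested. Promoters of sites without a motif had the SP word in 25.2%, near the members' share, and the ETS word in 19.8% (18.5 to 21.3), the E-box in 11.4% (10.3 to 12.6) and the NFY word in 6.07% (5.28 to 6.96).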

How the data were processed

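Per the study's methods and the submitters' processing notes, the authors merged the reads of each factor, mapped them to mm9 with Bowtie2 and called peaks with MACS2. The peak score deposited by the authors is a scaled −log10 q-value, the deposited fold is a ratio of summit fragments to local background with a pseudocount of 1, and the deposited −log10 p-value comes from a Poisson model of that background. The deposited motif score is the authors' log-odds score of the best CTCF motif in the peak by FIMO. No column gives a value of an input library, and the depth of each library at a site is unknown.

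Summit fragments and background were recovered from fold and p-value. They were whole within 0.1 at all but 2 of 76683 CTCF and 2 of 67369 Rad21 peaks. Each site took the strongest Rad21 peak that shared at least 1 bp. Motifs were located again with the study's matrix, at the deposited strand and score within 0.1 for 99.977% of 43337 motif sites. Starts came from GENCODE vM1 transcripts of protein-coding genes on NCBIM37, the assembly of mm9. Named members were the 10 strongest for CTCF and for Rad21, the 5 with the highest motif score, the 5 highest and 5 lowest ratios among members with at least the median CTCF count, and up to 4 genes for each list (all for CTCF and cohesin), except that 2 of these are not reported here. Members and lists were chosen with earlier results of these data known. Tests were Kolmogorov-Smirnov, exact binomial and logistic regression clustered by chromosome, with Benjamini-Hochberg adjustment over 17 tests and a threshold of 0.05, and were tested on simulated data. Intervals are Wilson intervals at 95% or, for odds ratios, from the regression, and cover counting error only. Python 3.11.15, SciPy 1.17.1, statsmodels 0.14.6, pysam 0.24.0 and samtools 1.23.1 were used.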

Additional observations from a re-analysis of the deposited data

Results flagged for a closer look

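The X chromosome was left out of every test, and entered only the shares over the whole class list. It held 110 other CAC sites with a motif within 1000 bp of a protein-coding start, which is a signal in data the report does not use. Their medians were 90.5 CTCF fragments, 36 Rad21 fragments and a motif score of 11.8.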

How the results depend on the processing

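Of 174 recomputed values, 159 kept their direction and their side of the threshold. No paired analysis was possible because the lists hold pooled peaks with no value per library, and for the same reason no library could be left out. Restricting motif scores to at least 14 left 1106 members and gave an AUC of 0.584 for CTCF and 0.479 for the Rad21-to-CTCF ratio against distal sites, both reversed, and an odds ratio of 1.17 for Stag2. Restricting the sets to motifs within 50 bp of the CTCF summit, an alternative chosen after seeing the data, left 1874 members, reversed CTCF (AUC = 0.534), took the call from Stag2 (1.25) and gave one to the difference in motif strand between downstream and upstream sites (odds ratio 0.806). Adding the anchors, also chosen after seeing the data, reversed Rad21 (AUC = 0.482) and gave a call to motif strand (0.753). The deposited fold reversed Rad21 (AUC = 0.437). Stag2 also lost its call within 2 kb of a start (1.22), with summits within 100 bp (1.31, with 3336 members) and with Rad21 fragments as covariate (1.19). The difference in Rad21 offset between motifs that point to and away from the start turned with summits within 100 bp and with offsets of at most 100 bp (AUC = 0.421 in both) and lost its call from the motif centre (0.517). Causes were not tested. The pooled lists limit every p-value to a comparison of sites, and variation between mice is not covered.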
